A study of Mus musculus with 7 samples.

Results

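The 55 mouse genes described here encode proteoglycans and glycoproteins of the extracellular matrix, together with enzymes that build or trim their sugar chains, and all 55 were found among the 21951 protein-coding genes of the GRCm38 annotation. A peak was placed at a member when the authors had given it that gene's symbol or when it lay in the gene body or in the 5000 bp upstream. The data came from ATDC5, a clonal mouse chondroprogenitor line that was kept in DMEM/F12 with serum, glutamine and ascorbic acid and was differentiated toward cartilage by adding insulin, transferrin and selenite. Day 0 progenitors gave 1 sample enriched for 5-methylcytosine (5mC) and 1 input sample that was not analysed here, and differentiating cells gave 1 sample enriched for 5mC at day 10 and 2 samples each enriched for 5-hydroxymethylcytosine (5hmC) at days 5 and 10. Each mark and day was available as 1 list of peak positions, with at least 3-fold enrichment for 5mC and at least 10-fold for 5hmC per the file headers, and the 2 samples of a 5hmC day had been merged. No value below therefore has a replicate spread, and a difference between days is a difference between 2 lists.

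The depth behind the lists is unknown and the lists hold no height or p-value. The sample that each list was called against is not given in the sources used here, and the study's aim in calling peaks, to find gain or loss of a mark between progenitors and chondrocytes, leaves unsettled whether a list holds every site of a mark. The absence of a peak is thus not evidence that a gene lacked the mark. The days are those of the labels, while the study's text gives other days, and counts of 5mC and 5hmC are not set against each other because their thresholds differ. No expression was measured in these samples, so the cell type could not be checked against its markers. There were 8949 peaks in the 4 lists, and 27 of them lay at a member.

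Cartilage matrix is built around aggrecan, whose core protein carries chondroitin and keratan sulfate chains and binds hyaluronan with the help of link protein, so that the tissue holds water. Small leucine-rich proteoglycans, matrilins and thrombospondins tie the collagen network to these aggregates, and fibrillins and elastin form microfibrils and elastic fibres that also store growth factors. 5mC is laid down mainly at CG dinucleotides, and TET enzymes oxidise it to 5hmC, which can be an intermediate in demethylation or a lasting mark of its own.

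The sequences that carry the findings are shown first. All are reference sequence of GRCm38 from RefSeq, plus strand, written 5′ to 3′, with each CG in capitals because this is where either mark is mainly found. The day 10 5hmC peaks below are the 4 that overlapped a day 5 5hmC peak. The first lies over a coding exon of Fbn1, and the others lie in the first introns of Fbn1 and Sulf2 and in the second intron of Chst11.
Fbn1 chr2:125330558-125330685: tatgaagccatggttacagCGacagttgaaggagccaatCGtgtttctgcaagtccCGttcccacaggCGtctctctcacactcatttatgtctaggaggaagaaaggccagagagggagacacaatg
Fbn1 chr2:125496658-125496797: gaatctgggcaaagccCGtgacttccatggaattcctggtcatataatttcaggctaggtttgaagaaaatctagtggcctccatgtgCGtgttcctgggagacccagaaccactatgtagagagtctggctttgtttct
Sulf2 chr2:166142677-166142950: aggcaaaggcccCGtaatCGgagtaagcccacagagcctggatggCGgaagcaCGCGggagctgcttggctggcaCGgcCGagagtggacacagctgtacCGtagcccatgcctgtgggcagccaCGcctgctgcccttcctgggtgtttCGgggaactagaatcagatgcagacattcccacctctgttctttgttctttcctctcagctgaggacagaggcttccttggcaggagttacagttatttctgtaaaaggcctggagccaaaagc
Chst11 chr10:83164000-83164175: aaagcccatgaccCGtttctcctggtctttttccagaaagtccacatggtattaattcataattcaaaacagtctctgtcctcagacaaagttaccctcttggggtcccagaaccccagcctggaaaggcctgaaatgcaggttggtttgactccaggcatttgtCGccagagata
The Sulf2 sequence held 10 CG dinucleotides in 274 bp, the most of any member peak in the day 10 5hmC list, while those of Fbn1 held 4 and 2 and that of Chst11 held 2.

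The next 4 sequences are single day 10 5hmC peaks at genes of small leucine-rich, bridging and adhesive proteins, shown as examples of genes with a single peak in all lists.
Ogn chr13:49616628-49616777: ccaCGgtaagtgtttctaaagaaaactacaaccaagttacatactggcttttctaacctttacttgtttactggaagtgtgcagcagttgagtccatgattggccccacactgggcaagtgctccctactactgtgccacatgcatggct
Matn3 chr12:8961620-8961751: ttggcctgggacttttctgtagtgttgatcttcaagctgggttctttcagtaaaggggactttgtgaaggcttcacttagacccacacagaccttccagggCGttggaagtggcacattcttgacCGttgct
Scrg1 chr8:57468713-57468838: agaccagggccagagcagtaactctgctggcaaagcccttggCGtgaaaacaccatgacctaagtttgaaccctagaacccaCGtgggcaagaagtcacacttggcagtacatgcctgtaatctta
Thbs4 chr13:92781013-92781161: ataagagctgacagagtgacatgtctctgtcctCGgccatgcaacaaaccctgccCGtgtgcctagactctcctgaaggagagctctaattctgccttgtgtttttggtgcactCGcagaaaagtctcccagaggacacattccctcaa
Matn3 and Scrg1 held 2 CG dinucleotides each, Thbs4 held 3 and Ogn held 1.

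In all, 12 of the 55 members had a peak in at least 1 list, which is 21.8%, and 15.9% of all protein-coding genes did. At day 0, 1 member had a 5mC peak (1.82% of members and 0.556% of genes). At day 10, 3 members had a 5mC peak (5.45% and 6.71%). For 5hmC, 3 members had a peak at day 5 (5.45% and 5.27%), and 10 had one at day 10 (18.2% and 8.32%). Of the 5hmC lists, that of day 10 thus had more members, and it was also the longer one, with 4164 peaks against 2058. All 3 members with a day 5 5hmC peak, Fbn1, Chst11 and Sulf2, also had one at day 10, and of all genes with a day 5 peak 48.1% did. These 3 are at least 50000 bp long. Of genes of that length, 702 had a day 5 5hmC peak and 415 had a 5hmC peak on both days. Over all members, 5.45% had a 5hmC peak on both days, against 2.54% of genes, and 18.2% had one on either day, against 11.1%. At 50000 bp or more, 15% of members and 8.29% of genes had one on both days, and 25% and 29.2% on either day. When only peaks at least as wide as the median of their list were kept, the day 10 5hmC count of members was 6, and 4.58% of genes had such a peak.

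**Figure D1:**
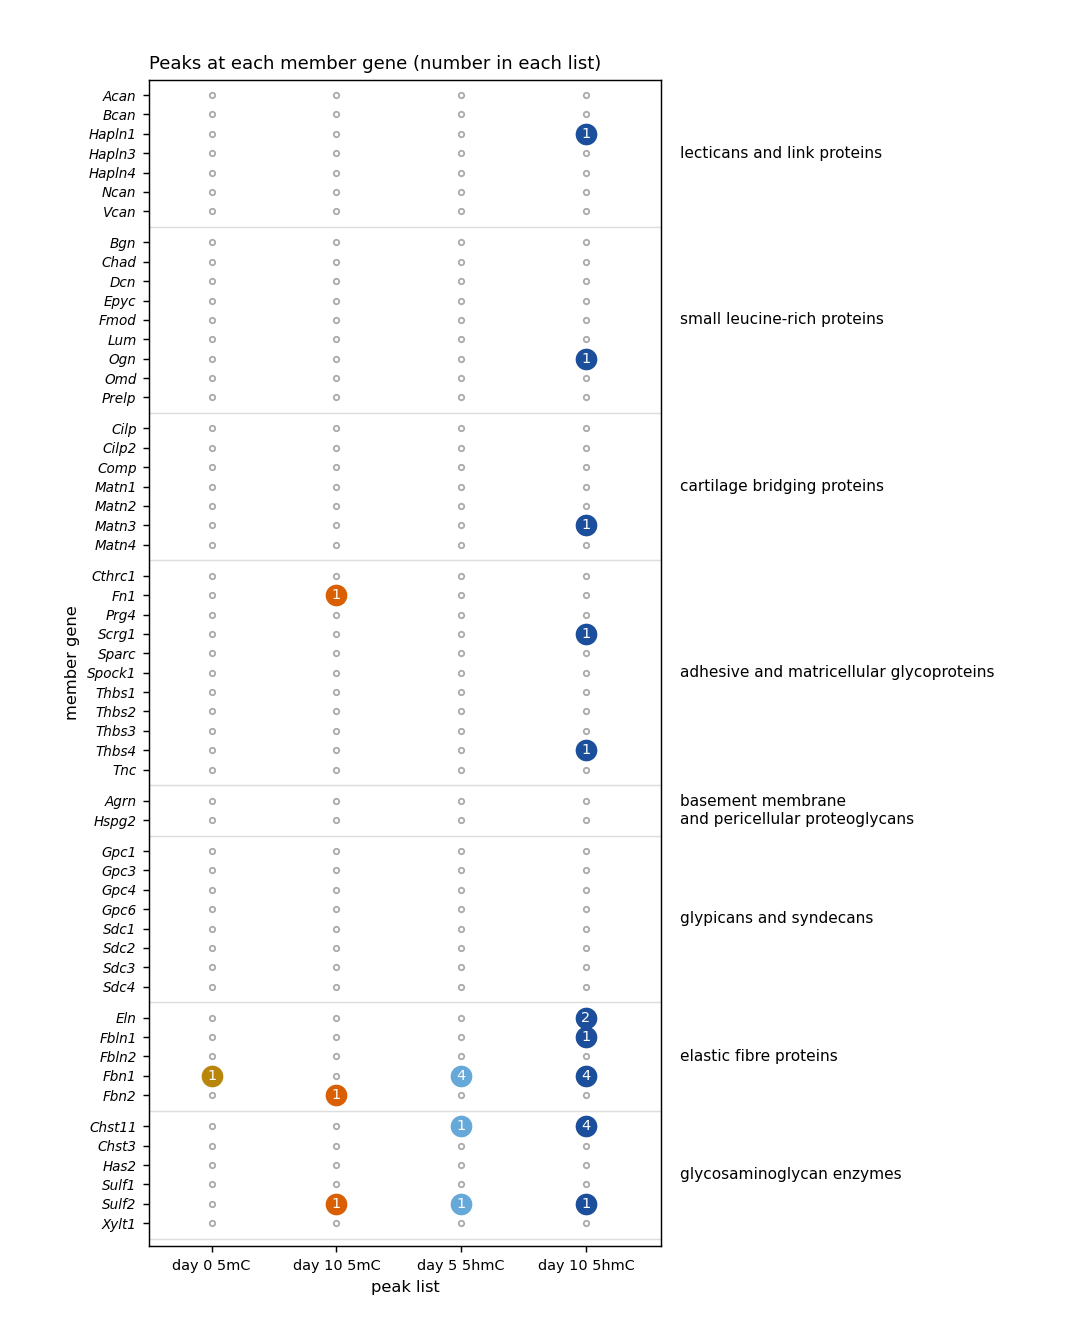
Number of peaks at each of the 55 member genes (vertical axis, grouped by role) in each of the 4 peak lists (horizontal axis); a filled circle gives the number of peaks and an open circle stands for no peak. Fbn1 has 4 peaks in both 5hmC lists, Chst11 has 1 and then 4, and the glypicans, syndecans and basement membrane proteoglycans have none.

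The number of peaks over the same genes was 1 for day 0 5mC, 3 for day 10 5mC, 6 for day 5 5hmC and 17 for day 10 5hmC. Per Mb of gene body and upstream sequence, members had 0.199, 0.598, 1.20 and 3.39 peaks in that order. All protein-coding genes had 0.103, 1.57, 1.16 and 2.26. For day 5 5hmC, 4 of the 6 peaks were in Fbn1. Without Gpc6 and Spock1, the longest members, which had no peak, the member values for day 5 and day 10 5hmC were 1.73 and 4.91 per Mb and that for day 10 5mC was 0.866. Leaving out genes without a peak can only raise the member values, and the values of all genes were not trimmed likewise. Over all 55 members the day 10 5hmC value was above that of genes. For day 10 5mC the member value was below that of genes with or without Gpc6 and Spock1. The day 10 5hmC peaks were concentrated in few genes, since Fbn1 and Chst11 held 4 each and Eln held 2.

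The elastic fibre genes held 13 peaks, at 4 of 5 members, and 9 of the 13 were in Fbn1 alone. Over all genes 15.9% had a peak in any list, but Fbn1 and Fbn2 are both over 200000 bp, where 54.3% of genes had one. Fbn1 (chr2:125300594-125507993, minus strand) encodes fibrillin-1, the main protein of microfibrils. It had 1 peak in the day 0 5mC list, none in the day 10 5mC list, 4 in the day 5 5hmC list and 4 in the day 10 5hmC list. Both 5hmC lists thus had several peaks in this gene, and 1 place in the first and 1 in the last part of the gene were found on both days.

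At day 5 the Fbn1 5hmC peaks lay at chr2:125496719-125497058 in intron 1, chr2:125367839-125368326 in intron 22, chr2:125330335-125331204 over exon 46 and chr2:125325037-125325584 in intron 48 of the transcript with 65 exons. At day 10 they lay at chr2:125496658-125496797 in intron 1, chr2:125448899-125449045 in intron 5, chr2:125337416-125337592 in intron 43 and chr2:125330558-125330685 over exon 46. The intron 1 peaks of the days shared 79 bp, and the whole 128 bp of the day 10 exon peak lay inside the day 5 peak. Exon 46 is a coding exon of 117 bp at chr2:125330533-125330649. The day 5 peak covered all of it, and the day 10 peak covered 92 bp. These were the only 5hmC peaks of any member that touched an exon.

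The Fbn1 5mC peak of day 0, chr2:125354448-125355044 in intron 31, held 12 CG dinucleotides, where flanking stretches of the same width held 5.5 on average. It did not overlap a 5hmC peak, and the nearest one in the gene was 12795 bp away. Its sequence was 28.6% repeat, below the median of 78.7% for the day 0 5mC list.

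Having 4 or more 5hmC peaks, a limit that is Fbn1's own count on each day, was uncommon. Among all protein-coding genes, 11 (0.0501%) did at day 5, 77 (0.351%) at day 10 and 4 (0.0182%) on both days, and Fbn1 was 1 of these 4. The others were Babam2, Foxp1 and the predicted gene Gm20388, which spans 4434882 bp. All 4 were at least 200000 bp long, and in that class of 998 genes they made up 0.401%. In the same class 10 genes (1%) had 4 or more peaks at day 5 and 50 (5.01%) at day 10. Fbn1 itself is 207.4 kb long. Chst11, of 210.4 kb, reached 4 peaks at day 10 only.

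Fbn2 (chr18:58008623-58210487), which encodes the related fibrillin-2 of developing microfibrils, is nearly as long as Fbn1, at 201.9 kb. It had no 5hmC peak on either day. Its single peak was 5mC of day 10, 991 bp wide, in intron 55 of a transcript with 65 exons, with 26 CG dinucleotides. The 2 fibrillin genes thus had no kind of peak in common, as Fbn1 had 5mC at day 0 only and Fbn2 had 5mC at day 10 only.

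Eln (chr5:134702593-134747323), which encodes elastin, had 2 day 10 5hmC peaks and no other. They lay at chr5:134709285-134709489 and chr5:134709492-134709682 in intron 28 of a transcript with 37 exons, with 3 bp between them. They lie almost end to end, and merging peaks within 1000 bp gave 16 day 10 5hmC peaks at members in place of 17. Fbln1 (chr15:85205949-85286535), which encodes fibulin-1, a calcium-binding glycoprotein of elastic fibres and basement membranes, had 1 day 10 5hmC peak at chr15:85239433-85239562. It lay in intron 11, 13 bp from an exon. Fbln2, its paralog, had no peak.

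**Figure D2:**
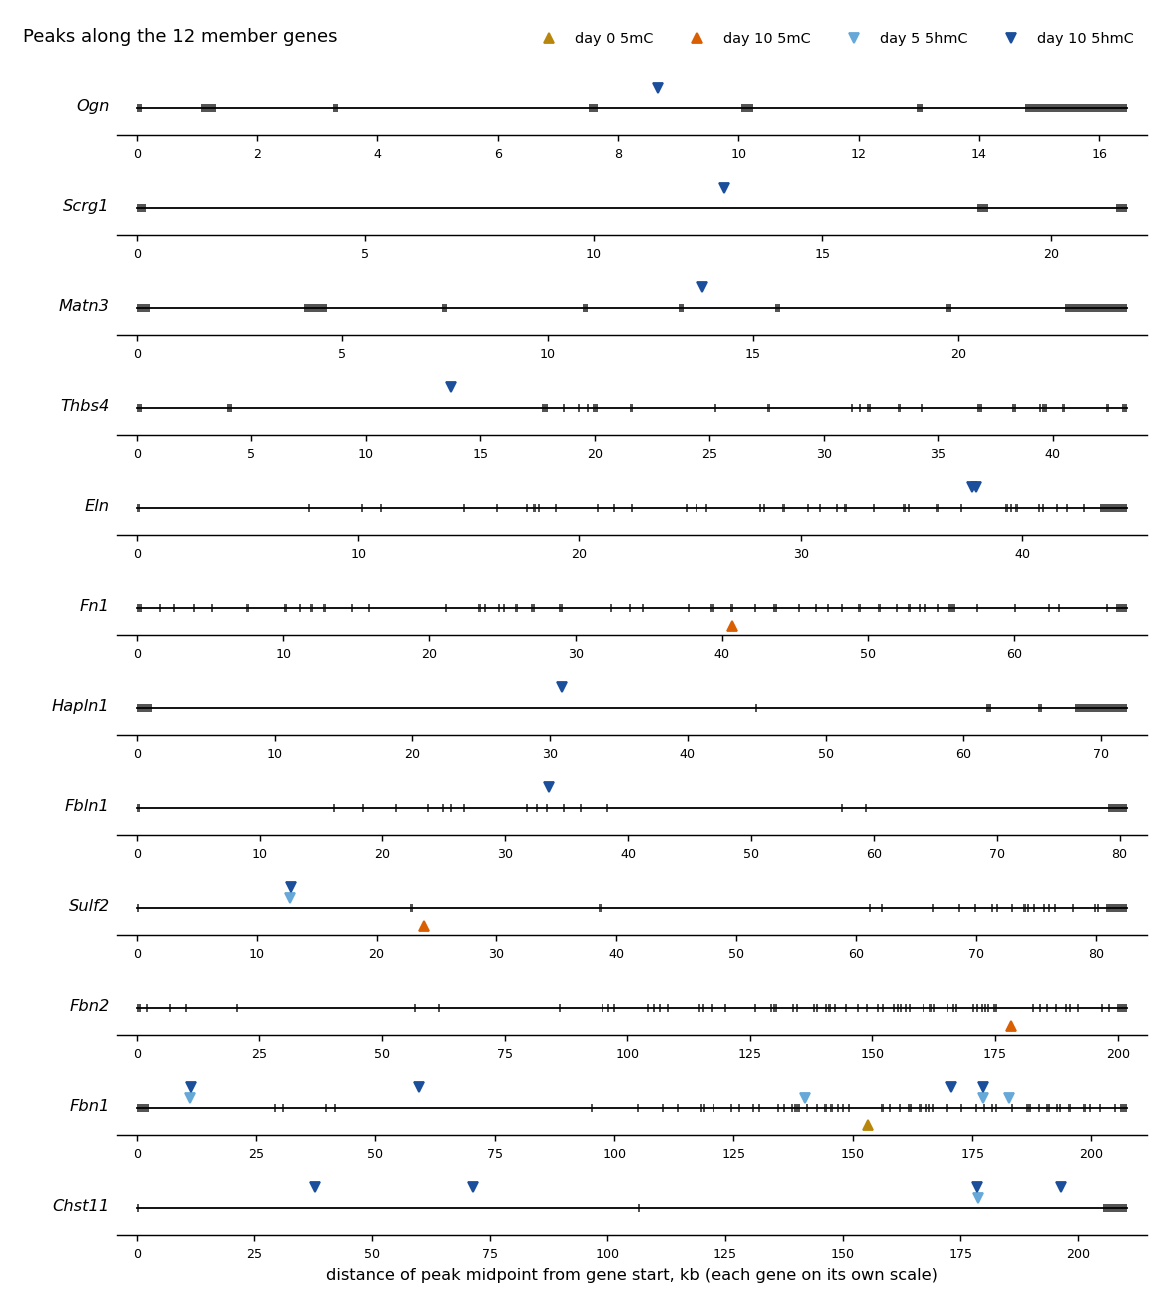
Positions of the 27 peaks along the 12 member genes that had any; the horizontal axis of each panel is the distance of the peak midpoint from the gene start in kb, on its own scale, boxes are exons, downward triangles are 5hmC and upward triangles 5mC. Day 5 and day 10 5hmC markers stand at the same place in the first and last part of Fbn1, in the first intron of Sulf2 and toward the end of Chst11, and no marker stands at the outermost start of a gene.

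Of the 6 enzymes of glycosaminoglycan chains, 2 (33.3%) had peaks, against 15.9% of all genes with a peak in any list. One of these, Chst11, is also over 200000 bp, where 54.3% of genes had one. Chst11 (chr10:82985498-83195900), a sulfotransferase that adds sulfate to chondroitin, had 1 day 5 5hmC peak and 4 of day 10. The day 5 peak, chr10:83163845-83164651 in intron 2 of a transcript with 3 exons, held the whole of the day 10 peak chr10:83164000-83164175. The other day 10 peaks lay at chr10:83023234-83023460 and chr10:83056924-83057029 in intron 1 and at chr10:83181833-83181985 in intron 2. Their CG counts were 3, 0 and 4, so that 1 of the 4 day 10 peaks in this gene held no CG. A further day 5 peak of 1057 bp with 26 CG dinucleotides, chr10:82975442-82976498, lay 9000 bp upstream of the gene and so outside the stretch that was counted. It raised the day 5 count of peaks at members from 6 to 7 when 10000 bp upstream were allowed.

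Sulf2 (chr2:166073089-166155663, minus strand), a secreted endosulfatase that removes sulfate from heparan sulfate, was the only member with both marks at day 10. The share of all genes with both was not counted, while 6.71% had a day 10 5mC peak and 8.32% a day 10 5hmC peak. Sulf2 had its 5mC peak, chr2:166131214-166132123, in intron 2, with 19 CG dinucleotides. Its 5hmC peaks lay in intron 1, at chr2:166142233-166143480 for day 5 with 35 CG dinucleotides and at chr2:166142677-166142950 for day 10 with 10. The day 10 peak lay whole within that of day 5. Both marks were thus in the first part of the gene but in different introns, with 10554 bp between the day 10 peaks. A further pair of day 10 5hmC peaks lay 10.54 kb and 19.58 kb upstream of Sulf2, outside the counted stretch.

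The other enzymes had no peak in any list. They were Sulf1, the paralog of Sulf2, Chst3, another chondroitin sulfotransferase, Xylt1, which starts the chains on the core protein, and Has2, which makes hyaluronan. Sulf2 spans 82.6 kb, Sulf1 168.9 kb and Xylt1 292.6 kb. Of all genes of at least 100000 bp, 48.3% had a peak in any list.

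The shares of the next roles can be read against the 15.9% of all genes with a peak in any list. Of the 7 lecticans and link proteins, 1 (14.3%) had a peak. Hapln1 (chr13:89539796-89611652), the link protein of cartilage, had 1 day 10 5hmC peak in intron 1. At 55 bp it was the narrowest peak at any member, and 8 of the 4164 peaks of that list (0.192%) were no wider. It was all repeat-marked and held no CG, as were 39 peaks of the list (0.937%). The large proteoglycans Acan, Vcan, Bcan and Ncan had no peak, and neither did the link proteins Hapln3 and Hapln4. For Acan, the study's text describes a rise in 5hmC between day 0 and day 10, by its own days.

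Of the 9 small leucine-rich proteins, 1 (11.1%) had a peak. Ogn (chr13:49608046-49624501), which encodes osteoglycin, had 1 day 10 5hmC peak of 150 bp at chr13:49616628-49616777 in intron 4. The gene Cenpp runs over the same place on the other strand, so that the peak lies in both genes although the authors' symbol for it is Ogn, and it was the only one of the 27 that overlapped another gene. Bgn, Chad, Dcn, Epyc, Fmod, Lum, Omd and Prelp had none. They include decorin and biglycan, which bind collagen fibrils and growth factors, and fibromodulin and lumican, which regulate fibril width.

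Of the 7 cartilage bridging proteins, 1 (14.3%) had a peak. Matn3 (chr12:8947929-8972028), a matrilin of the growth plate, had 1 day 10 5hmC peak of 132 bp in intron 5. Flanking stretches of the same width held no CG, against 2 in the peak. Comp, Matn1, Matn2, Matn4, Cilp and Cilp2 had none. Comp is the cartilage member of the thrombospondin family, and Cilp and Cilp2 are proteins of the interterritorial matrix.

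Of the 11 adhesive and matricellular glycoproteins, 3 (27.3%) had a peak. Thbs4 (chr13:92751590-92794818), a thrombospondin of tendon and muscle matrix, had 1 day 10 5hmC peak of 149 bp in intron 2. Scrg1 (chr8:57455923-57477585), a small secreted protein found in differentiating mesenchymal cells, had 1 day 10 5hmC peak of 126 bp in intron 1, of which 44.4% was repeat-marked. Fn1 (chr1:71585520-71653200, minus strand), which encodes fibronectin, had no 5hmC peak and 1 day 10 5mC peak, chr1:71611838-71613202. At 1365 bp with 37 CG dinucleotides it was the widest peak at any member, and it covered the whole of coding exon 26 of 46, chr1:71612468-71612650. Cthrc1, Prg4, Sparc, Spock1, Thbs1, Thbs2, Thbs3 and Tnc had none.

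Neither basement membrane proteoglycan, Hspg2 (perlecan) or Agrn (agrin), had a peak. Nor did any of the 8 glypicans and syndecans, which carry heparan sulfate at the cell surface and present growth factors, namely Gpc1, Gpc3, Gpc4, Gpc6, Sdc1, Sdc2, Sdc3 and Sdc4. Gpc6 spans 1051 kb and Gpc3 341.5 kb, and 54.3% of genes of at least 200000 bp had a peak in any list. Gpc3, Gpc4 and the biglycan gene Bgn are on the X chromosome, where 3.27% of the 948 protein-coding genes had a peak in any list.

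Longer genes have more room for a peak, and the members were longer than other genes, with a median of 29135 bp against 17403 bp. The members with a day 0 5mC, day 10 5mC or day 5 5hmC peak were all at least 50000 bp long. Of the 20 members of that length, 1 (5%), 3 (15%) and 3 (15%) had a peak in these lists, against 1.72%, 16.2% and 14% of genes. Of the 35 members under 50000 bp, 5 (14.3%) had a day 10 5hmC peak, and 3.84% of the 16944 genes of that length did. They were Ogn, Scrg1, Matn3, Thbs4 and Eln, and none of them had a day 5 peak. Of the 20 longer members, 5 (25%) had a day 10 5hmC peak against 23.5% of genes. Of the 12 members of at least 100000 bp, 2 (16.7%) did against 31.9%. By finer classes, 0 of 5 members under 10 kb had one against 2.25% of genes, 3 of 18 from 10 to 25 kb against 3.56%, 2 of 12 from 25 to 50 kb against 7.47% and 3 of 8 from 50 to 100 kb against 15.1%. The share of members in the day 10 5hmC list was thus above that of genes between 10 and 100 kb and not outside that range. Except for the fibrillins, counts by role were not set against genes of like length, and nor are those of the 114 other genes given last.

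**Figure D3:**
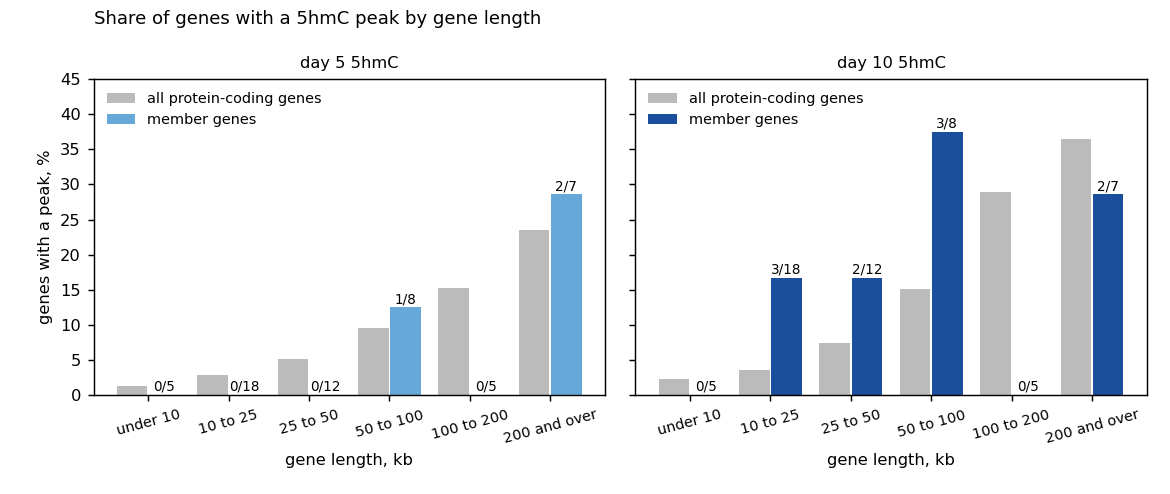
Percent of genes with a 5hmC peak (vertical axis) by gene length in kb (horizontal axis) for day 5 (left) and day 10 (right); grey bars are all protein-coding genes, coloured bars are the members, and the labels on the bars give members with a peak over members in the class. At day 10 the member bars stand above the grey bars from 10 to 100 kb and below them for longer genes, where 0 of 5 and 2 of 7 members had a peak.

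The long members without any peak were Gpc6, Spock1, Gpc3, Xylt1, Sulf1, Matn2, Sdc2, Gpc4 and Hspg2, each over 100000 bp. Among the 12 members of that length, peaks in any list were found at 3, Fbn1, Chst11 and Fbn2 (25%), against 48.3% of genes of that length.

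Peaks at members lay inside genes. Of the 27 peaks, 24 lay in introns, clear of every annotated exon, 3 overlapped a coding exon and none lay upstream. The midpoint nearest to its gene's outermost start was that of Ogn, 8656 bp away. Measured from the nearest start of any annotated transcript, that of Fn1 was nearer, at 2953 bp, and so were those of Fbn2, at 3789 bp, and Thbs4, at 6113 bp. For day 10 5hmC, 16 of 17 member peaks were intronic against 77.4% of the peaks at all genes, and none lay upstream or outside the gene, a class that held 11% of gene peaks. For day 5 5hmC, 5 of 6 were intronic against 63.5%. For day 10 5mC, 2 of 3 were intronic against 38.7%, and 1 covered a coding exon against 49.4%.

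Shared places on both days made up 4 of the 17 day 10 5hmC peaks at members (23.5%) and 4 of the 6 day 5 peaks (66.7%). Over all peaks the shares were 17.1% and 29.6%. The 4 shared places were the pair in Fbn1 and those in Sulf2 and Chst11, all printed above. Because day 10 peaks were narrow (a median of 149 bp at members and 147 bp over the list) and day 5 peaks wide (677.5 bp and 819 bp), none of the 4 shared at least 50% of both peaks. Over the whole lists, 0.264% of day 10 and 0.534% of day 5 peaks met that rule. At members, the 13 remaining day 10 peaks had no day 5 peak within 1000 bp.

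CG content of the member peaks was set beside that of their lists. The median at members was 1.46 CG per 100 bp for day 10 5hmC, 1.47 for day 5 5hmC and 2.62 for day 10 5mC, where all peaks of these lists had 1.80, 1.61 and 2.42. More CG than in flanks of the same width, taken 2000 bp from the peak edges, was found in 10 of 17 day 10 5hmC peaks (70.2% of all peaks of that list), in 4 of 6 day 5 peaks (79.3%) and in 3 of 3 day 10 5mC peaks (90.2%). Among day 10 5hmC peaks the range ran between Sulf2, with 3.65 CG per 100 bp, and the Hapln1 peak and the second Chst11 peak, with 0. These were 2 of 17 member peaks without a CG, against 6.56% of the day 10 5hmC list.

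**Figure D4:**
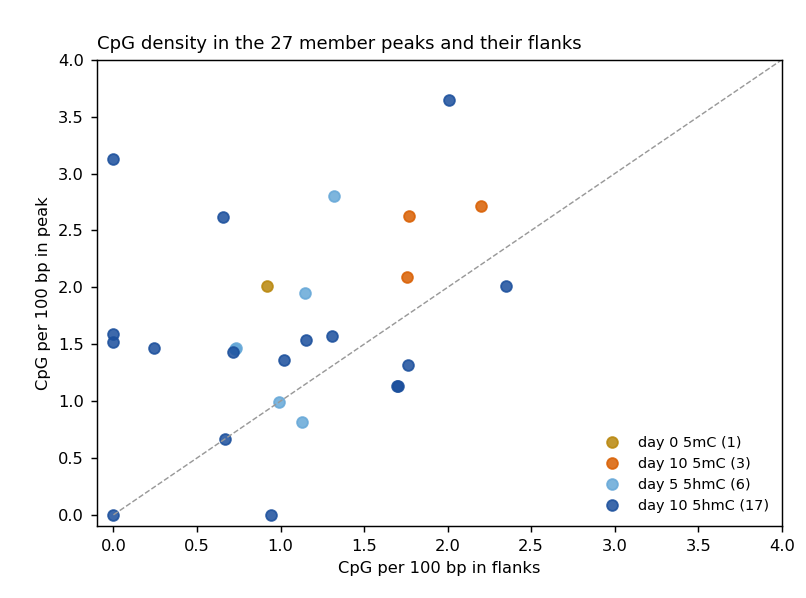
CG dinucleotides per 100 bp in each of the 27 member peaks (vertical axis) against the mean of its flanks (horizontal axis), coloured by list; the dashed line marks equal values. All 3 day 10 5mC points lie above the line, and 5 of the 17 day 10 5hmC points lie below it.

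Short strings bound by 4 families of transcription factors were looked for on both strands of the peaks. They were TGAGTCA for AP-1, TGCCAAG for NF1 factors, AACCACA for RUNX, and ACAAAGG or ACAATGG for SOX factors, and no string is part of another. The NF1 string was present in 4 of the 17 day 10 5hmC peaks at members, in Chst11, Eln, Scrg1 and Sulf2, and in 7.85% of all peaks of that list. In Sulf2 and Scrg1 it is read on the minus strand of the sequences above. In Sulf2 the same site also lay in the day 5 peak, which was the only one of the 6 day 5 peaks at members to hold it (23.5% of that list). AP-1 was found in 1 of 6 day 5 peaks, in Chst11, against 43.1% of the list, and in none of the 17 day 10 peaks against 7.97%. RUNX and SOX strings were in no 5hmC peak of a member, against 25.6% and 27.2% of the day 5 list and 7.56% and 5.38% of the day 10 list. A match describes the letters only.

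Some members without a peak of their own had a 5hmC peak close by. Of the 45 members without a 5hmC peak, 8 (17.8%) had one within 25 kb of the gene, against 8.95% of the 19525 protein-coding genes without one, and 4 (8.89%) had one on both days against 1.59%. These 4 were Gpc1, Fmod, Cilp2 and Thbs2. Cilp2 had the nearest, a day 5 peak of 947 bp with 20 CG dinucleotides at chr8:69875870-69876816, which began 3553 bp past the end of the gene, and a day 10 peak of 194 bp at chr8:69874906-69875099, 5270 bp past it. The peaks of Gpc1 lay 15.93 and 16.23 kb upstream and overlapped each other, and those of Thbs2 overlapped 24.06 and 24.41 kb downstream. Those of Fmod lay 20.65 kb (day 5) and 24.51 kb (day 10) downstream without overlap. The day 10 peak near Fmod carried the symbol of Btg2. The others, with day 10 peaks only, were Prelp, Thbs1, Sdc1 and Omd. The Omd peak is the one counted for Ogn, and those of Prelp carried the symbol of Optc, its neighbour. The 25 kb limit was not planned and no other was tried, and peaks of Thbs2, Fmod and Omd lay close to it. Distance does not tell which gene such a peak belongs to.

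A list of 114 other genes of matrix assembly gave a wider view. Day 10 5hmC peaks were found at 23 of them (20.2%, against 8.32% of all genes), at 11 of 45 further matrix proteins, 6 of 45 genes of glycosaminoglycan assembly and 6 of 24 hyaluronan and matrix receptors. Day 5 5hmC peaks were found at 12 (10.5% against 5.27%), day 10 5mC peaks at 4 (3.51% against 6.71%) and day 0 5mC peaks at 2 (1.75% against 0.556%). The 5 with most peaks were Ltbp1, Itgb5, Cemip2, Csgalnact1 and Ddr2. Ltbp1, which encodes a protein that holds latent TGF-β on fibrillin microfibrils, had 6 day 10 5hmC peaks over 386945 bp and none in another list. Itgb5, an integrin subunit that binds vitronectin, had 2 day 5 and 3 day 10 5hmC peaks. Cemip2, a cell-surface protein linked to hyaluronan breakdown, and Ddr2, a collagen receptor, each had 1 day 5 and 2 day 10 5hmC peaks. Csgalnact1, which starts chondroitin chains, had 2 and 1. Ext1, Smoc2 and Ust also had 3 peaks each and came after these by symbol.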

How the data were processed

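The authors trimmed reads, aligned them with BWA to GRCm38, called peaks with MACS 1.4.2 and named genes with HOMER. The 4 deposited lists give chromosome, start, end and, where the authors assigned one, a gene symbol and accession. Enrichment was at least 3-fold for 5mC and 10-fold for 5hmC per the file headers, with no score per peak. Empty rows were dropped (27818 at day 5 and 25449 at day 10 of 5hmC). Some symbols had been turned into dates by a spreadsheet, none of them of a member. Starts were read as the first base, counted from 1.

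Protein-coding genes came from GENCODE mouse release 21, and sequence and repeat marking from RefSeq's GRCm38. Python 3.11.15, pandas 2.3.3 and numpy 2.4.6 were used, and placement was checked on simulated peaks. Of 169 listed genes 168 matched by symbol, and Tmem2 was matched as Cemip2. With 1 list for each mark and day no test was made. Counts were set beside shares over all genes or peaks, and length classes beside the counts of each list. All members were named, and of the other genes the 5 with most peaks, ties by symbol. Sequences were chosen among peaks of at most 300 bp, first where both days overlapped, then in promoters or coding exons, then the narrowest at cartilage genes, and 1 of them is not reported here. Members and lists were chosen with earlier results of these data known. Peaks per Mb without the longest members were added after the data were seen, and the search for peaks within 25 kb was not planned. Other settings covered the placement rule, the upstream stretch, peak width, merging, the overlap rule and the motif window.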

Additional observations from a re-analysis of the deposited data

How the results depend on the processing

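No paired analysis was possible because each 5hmC list pools the numbered samples of its day, and leaving out a replicate was likewise not possible. Of 74 alternative values, 60 stayed within 1.5 times the value given and 14 did not. As the lists hold no fold or score, peak width stood in for a stricter threshold. With peaks at least as wide as the median of their list, members with a peak numbered 0 in place of 1 for day 0 5mC, 1 in place of 3 for day 10 5mC and 6 in place of 10 for day 10 5hmC, where Hapln1, Matn3, Scrg1 and Fbln1 dropped out. Peaks at members then numbered 0 in place of 1, 1 in place of 3 and 10 in place of 17 for these lists, and 2 in place of 6 for day 5 5hmC. Requiring 50% of both peaks, 0 in place of 4 day 10 peaks at members overlapped a day 5 peak, and 0.264% of the whole list did. In windows of 200 bp around the midpoint, NF1 and SOX strings in day 0 5mC went from 1 to 0 each, RUNX in day 10 5mC from 1 to 0, AP-1 in day 5 5hmC from 1 to 0, and AP-1 and SOX in day 10 5hmC from 0 to 1 each. Windows are narrower than wide peaks and wider than most day 10 5hmC peaks. The unknown depth limits each absence of a peak, and its effect was not tested.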
